A study of Mus musculus with 2 samples.

Results

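Cytosolic ribosomal protein genes were taken as the gene symbols that begin with Rpl or Rps and a digit, together with Rplp0, Rplp1, Rplp2 and Rpsa. Symbols with "-ps" and the ribosomal S6 kinases were left out. The rule found 87 of the 27998 genes in the count matrices. Of these, 77 carry the standard name of a ribosomal protein, 46 of the large subunit and 31 of the small subunit. A further 8 are like-named relatives, whose symbols end in l or in l and a digit: Rpl3l, Rpl6l, Rpl7l1, Rpl10l, Rpl22l1, Rpl36al, Rpl39l and Rps27l. The other 2 are Rps27rt, a retrotransposed relative of Rps27, and Rps19bp1, a protein that binds Rps19 and is not itself a ribosomal protein.

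Each cytosolic ribosome is built from a small subunit, which reads the messenger RNA, and a large subunit, which joins the amino acids. Both hold ribosomal proteins around ribosomal RNA, and cells make these proteins in step from short and very abundant messenger RNAs. Many of those messengers begin with a run of pyrimidines, the TOP tract, through which mTOR and Larp1 control how well they are translated.

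Cells had been dissociated from mouse spinal cord, sorted for YFP and sequenced as 3′ tags with unique molecular identifiers (UMIs), in 1 library per group. The labels give both groups the background C57BL/6J and the transgenic strain Cx3cr1-CreERT2-YFP::flxRunx1, in which the Cx3cr1 locus, active in microglia and related myeloid cells, drives a tamoxifen-dependent Cre and YFP. The wild type library came from mice given vehicle, and the library labelled knock-out from mice given tamoxifen at 1 mg/day in 5 once-daily injections. Tissue was taken 4 weeks after the first injection. The sources used here give no age, sex or number of animals. Tamoxifen, genotype and library cannot be told apart, no comparison between the libraries has a replicate, and every interval here, in square brackets after its value, is a 95% interval for counting error only. The library is called knock-out below only by its label.

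The wild type library held 4582 cells with 37446978 UMIs, and the library labelled knock-out held 2596 cells with 13050962 UMIs after 8 barcodes were removed. Median depth was 6376 and 3718.5 UMIs per cell, and 9 barcodes occurred in both libraries. Runx1 in microglia-like cells was at 93.01 [88.3 to 97.9] UMIs per 1000000 (CPM) in the wild type library and at 181 [171 to 192] CPM in the library labelled knock-out. It was thus not lower there, and 3′ tags need not lie in the deleted part. Clusters were named from marker genes. They gave 2179 and 1359 microglia-like cells (wild type, then knock-out) and 1624 and 838 endothelial-like cells. Both classes lay mostly in different clusters in the 2 libraries, clusters 0 and 2 for microglia-like and 1 and 3 for endothelial-like cells. There were 200 and 142 pericyte or smooth muscle-like cells, and 56 and 72 erythrocyte-like cells. A YFP gate on Cx3cr1 would not be set to collect the last 3 classes. Another 438 and 127 cells had markers of both microglia and endothelium and stayed unnamed. Markers of the other class were present in full, 9 of 9 endothelial markers in microglia-like cells at 4922 and 1642 CPM in sum, and 12 of 12 microglial markers in endothelial-like cells at 8294 and 3454 CPM. No defining marker of either list was at 0, and their level was higher in the wild type library. Their part in the comparisons below was not tested, and the subtraction of free RNA given there is an alternative value only.

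Transcription start windows are shown for the members on which the results below turn, because the pyrimidine tract at the start is the control element this gene family is known for. Each run is 30 bases long, 15 upstream of the annotated start and 15 of the first exon from the start on, taken from the RefSeq promoter table (GRCm38.p6) and written 5′ to 3′ on the gene's strand. Capitals mark a run of at least 5 pyrimidines counted from a C within 3 bases of the start. Pyrimidines may also lie directly upstream of that C, and these are left in small letters.
Rpl38: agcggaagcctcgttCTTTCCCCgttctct (chr11:114668565-114668594, + strand)
Rpl15: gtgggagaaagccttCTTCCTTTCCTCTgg (chr14:18270972-18271001, - strand)
Rpl35: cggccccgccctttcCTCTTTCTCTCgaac (chr2:39005117-39005146, - strand)
Rps27: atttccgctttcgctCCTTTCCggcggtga (chr3:90213634-90213663, - strand)
Rps27l: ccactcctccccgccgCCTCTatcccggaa (chr9:66946071-66946100, + strand)
Rpl22l1: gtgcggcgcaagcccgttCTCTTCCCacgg (chr3:28805493-28805522, + strand)
Rps28: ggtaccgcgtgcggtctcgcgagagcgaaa (chr17:33824548-33824577, - strand)
Rpl10: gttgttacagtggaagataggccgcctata (chrX:74270801-74270830, + strand)
Rpl10a: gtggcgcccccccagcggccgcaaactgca (chr17:28328456-28328485, + strand)
Rps15: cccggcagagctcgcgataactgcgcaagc (chr10:80292416-80292445, + strand)
Of the 87 members, 66 had an entry in the table, 57 of them among the 77 with standard names. By this definition 23 of the 57 (40.4%) held a tract, against 13.5% of the 27025 genes in the table and 13.2% of the mitochondrial ribosomal protein genes. Of the like-named genes 7 had an entry, and 2, Rps27l and Rpl22l1, held a tract. Of the sequences above, Rpl38, Rpl15, Rpl35, Rps27, Rps27l and Rpl22l1 carry it, and those of Rps28, Rpl10, Rpl10a and Rps15 do not at the annotated base. Rps27l also has another annotated start, not shown, without a tract. The choice of windows is not a sample: the low members Rpl12 and Rplp2 held a tract, while Rpl27, Rpl13, Rplp0 and Rpl41 did not. Whether the tract goes with any ratio below was not tested. In the 300 bases around the start, the ETS family motif CCGGAAG on either strand occurred in 42.1% of the 57 promoters and in 9.93% of all genes. The YY1 motif AAGATGGC occurred in 8.77% against 3.19%, the SP1 motif GGGCGG in 61.4% against 38.2%, and TATAAA in 10.5% against 15.7%. Of the mitochondrial ribosomal protein genes, 36.8% held the ETS motif, 17.6% the YY1 motif and 7.35% TATAAA. Their share with the SP1 motif lay between that of the members and that of all genes. The ETS motif was thus frequent in both ribosomal protein sets, and the YY1 motif was more frequent in the mitochondrial set. The 300-base windows can hold several of these motifs at once, and a match is a description of the letters only.

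Microglia-like cells gave the largest part of their RNA to these genes among the 4 named classes with at least 50 cells in each library. The 87 members made up 15.06% [15.047 to 15.082] of their wild type UMIs and 13.52% [13.491 to 13.545] of their knock-out UMIs. Endothelial-like cells gave 12.98% [12.959 to 12.997] and 11.19% [11.159 to 11.221]. The share in pericyte or smooth muscle-like cells was 12.50% [12.455 to 12.541] and 10.12% [10.056 to 10.176], and erythrocyte-like cells 9.85% [9.775 to 9.919] and 7.16% [7.090 to 7.229]. The unnamed cluster 4, with markers of microglia and endothelium, gave 13.77% and 11.78%, between the microglia-like and endothelial-like values. On the total of all UMIs the order of the named classes was thus the same in both libraries, and the knock-out value was the lower one beside each wild type value. In erythrocyte-like cells haemoglobin took 25.2% and 33.1% of the UMIs. Without haemoglobin and mitochondrial genes their member share was 13.46% and 10.96%, beside 13.34% and 11.50% in endothelial-like cells on the same total. Pericyte or smooth muscle-like cells had 12.92% and 10.63% there. On that total the order of erythrocyte-like and endothelial-like cells thus differed between the libraries.

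**Figure D1:**
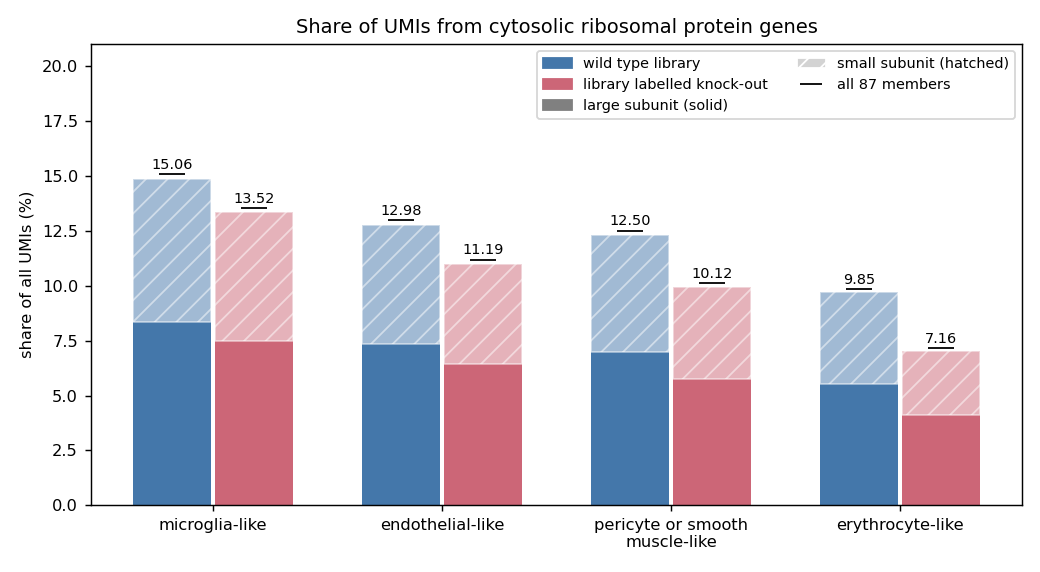
Share of all UMIs (percent, vertical axis) from the 46 large subunit genes (solid) and the 31 small subunit genes (hatched) in the 4 cell classes, with the share of all 87 members as a black mark and number. Blue bars are the wild type library and red bars the library labelled knock-out, and the red bar is the shorter of each pair.

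Large and small subunit genes kept similar proportions. In microglia-like cells large subunit genes took 8.35% and 7.503% of UMIs and small subunit genes 6.51% and 5.83%, so that the ratio of small to large was 0.78 in both libraries. In endothelial-like cells the ratio was 0.74 and 0.71, in pericyte or smooth muscle-like cells 0.76 and 0.73, and in erythrocyte-like cells 0.75 and 0.71. Small subunit genes thus took the lower part in each of these classes, and microglia-like cells had the highest ratio in both libraries.

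The classes with fewer than 50 cells in a library lay on both sides of these values. Cluster 8, led by Gzma, Nkg7, Top2a and Mki67, genes of killer lymphocytes and of dividing cells, gave 13.89% and 13.96% of its UMIs to the members in 23 and 17 cells. Cluster 10, led by H2-Aa, Cd74 and Cd79a, genes of antigen-presenting cells, gave 15.89% and 14.96% in 19 and 4 cells. Ependymal-like cells gave 11.9% and 9.06% in 19 and 28 cells. Oligodendrocyte-like cells gave 9.01% and 5.31% in 18 and 8 cells. Neutrophil-like cells gave 11.1% in 6 wild type cells and 3.03% in a single knock-out cell. Clusters 8 and 10 thus lay near the microglia-like cells, and the others lay lower. Both clusters also carried many microglial markers, at 19563 and 23267 CPM in cluster 8 and 16927 and 23910 CPM in cluster 10. Microglia-like cells had 24023 and 27500 CPM. The 2 clusters thus cannot be read as free of microglial RNA, and its part in their shares was not tested.

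Single cells varied widely around these sums. After each cell was thinned to 1500 UMIs, the median share per microglia-like cell was 14.6% in the wild type library, with 10.5% at the 5th and 20% at the 95th percentile. In the library labelled knock-out it was 13.1%, with 7.06% and 19.9% at those percentiles, so that the low tail reached further down while the high tail was alike. Endothelial-like cells had medians of 12.7% and 10.5%. Unthinned medians were 14.6% and 13.1% for microglia-like cells and 12.7% and 10.5% for endothelial-like cells.

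Part of the spread among microglia-like cells followed finer clusters, found without the member genes at Leiden resolution 1.0. In the wild type library a cluster of 608 cells had more Spp1, a secreted protein of activated microglia, and Cxcl2, a chemokine, at 279 and 384 CPM, and gave 16.9% of its UMIs to the members. The other 2 large clusters, with Spp1 at 55.4 and 44.8 CPM and Cxcl2 at 69.6 and 148 CPM, gave 13.9% and 14.7%. In the library labelled knock-out a cluster of 460 cells with more P2ry12, a receptor of resting microglia, at 4339 against 2798 CPM, gave 11.8%, and the other large cluster, of 889 cells, gave 14.2%. In both libraries the fine cluster with the least P2ry12 therefore had the highest share. Rplp0, of the ribosomal stalk, went with it (2339 CPM against 1803 and 1929 among wild type cells, and 2445 against 1925 CPM among knock-out cells). Rplp1, Rps29, Rpl41 and Rps28 did so too, with Rps29 at 7036 against 5670 and 5877 CPM, and at 6402 against 5255 CPM. Rps27l did not among wild type cells (298 against 302 and 281 CPM). Depth went with the share too: with microglia-like cells split by depth into 4 equal parts, it ran from shallow to deep 13.6%, 14.98%, 15.4% and 15.3% in wild type cells and 12.2%, 12.8%, 14.1% and 13.8% in knock-out cells. In endothelial-like cells it ran 12.8%, 12.9%, 12.8% and 13.2%, and 10.3%, 10.4%, 10.8% and 11.8%. The part of depth in these differences was not tested.

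The library labelled knock-out had lower levels of most members in microglia-like cells. Among the 84 members that reached 20 CPM in at least 1 library, the median log2 ratio was -0.19, against -0.04 over the 5748 genes that entered. Past 1.2-fold, 29 members were lower, where 29.7% of all genes were, and 3 were higher, where 23.4% were. No member was 1.5-fold lower or higher, where 12.3% and 8.14% of all genes were. Most members were thus lower by a small amount, with lower calls about as frequent as among all genes and fewer higher calls. Large subunit genes had a median of -0.19 and small subunit genes of -0.17. The 3 genes that did not enter were Rpl10l, Rpl3l and Rpl39l. The count depends on the cells compared and on free RNA. With free RNA subtracted 39 members were lower and 2 higher. With cells of 3000 to 6000 UMIs only, a choice made after seeing the data, 12 members were lower and 6 higher. With the finer clusters, which leave the 608 Spp1-rich cells out of the class, 15 were lower and 5 higher. The shares of all genes under these 3 settings are not given here, so these counts cannot be set against a background.

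In endothelial-like cells the median of the 84 members was -0.23, while that of the 6292 genes that entered was 0.09. Of the members, 35 were at least 1.2-fold lower, where 15.5% of all genes were, and 4 were at least 1.2-fold higher, where 28.5% were. Only Rpl10a and Rplp1 were 1.5-fold lower (5.91% of all genes) and none was 1.5-fold higher (5.34%). Lower calls were thus more frequent among the members than among all genes. Scaled to the median of all genes, the members' median was -0.32. After subtraction of an upper estimate of free RNA, 21 members were lower and the median was -0.17. The share of all genes lower after that subtraction is not given here.

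**Figure D2:**
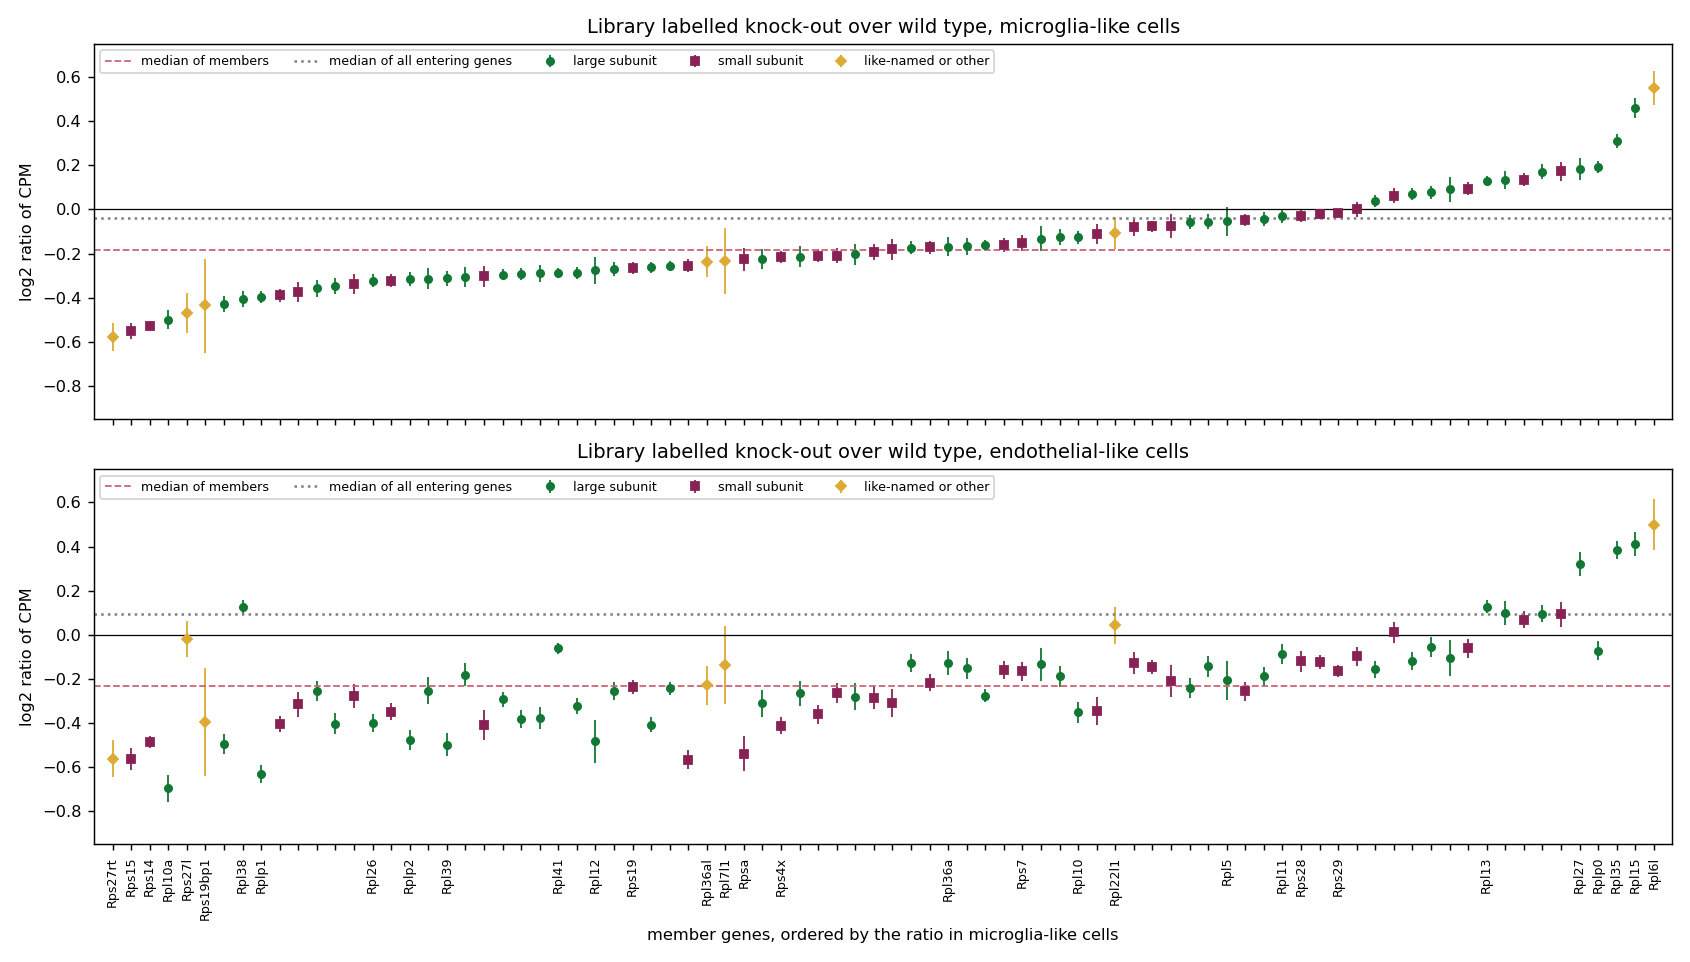
Log2 ratio of CPM (vertical axis), library labelled knock-out over wild type, of the 84 entering members in microglia-like (top) and endothelial-like cells (bottom), with 95% counting intervals. Genes are ordered by the top panel, and members described in the text are named on the axis. The dashed lines mark the members' medians of -0.19 and -0.23 and the dotted lines those of all entering genes, -0.04 and 0.09, and Rpl6l, Rpl15 and Rpl35 sit at the right end of both panels.

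Among the lowest ratios were 2 abundant small subunit proteins, Rps15 of its head and Rps14 of its platform. Rps15 stood at 1659 CPM in wild type and 1132 CPM in knock-out microglia-like cells, a log2 ratio of -0.55 [-0.59 to -0.51], and at 1547 and 1047 CPM in endothelial-like cells, a ratio of -0.56 [-0.61 to -0.51]. Rps14 was at 4633 and 3214 CPM in microglia-like cells (-0.53 [-0.55 to -0.50]) and at 4432 and 3166 CPM in endothelial-like cells (-0.49 [-0.51 to -0.46]). Rpl10a, the protein of the L1 stalk through which the used transfer RNA leaves, was at 1358 and 961 CPM in microglia-like cells, a ratio of -0.50 [-0.54 to -0.46]. In endothelial-like cells Rpl10a had the lowest ratio of all members, -0.70 [-0.76 to -0.63], at 1048 and 647 CPM. In pericyte or smooth muscle-like and erythrocyte-like cells Rps15 had -0.64 and -0.87, Rps14 -0.66 and -0.74, and Rpl10a -0.81 and -0.78. Other low members were Rps27rt (-0.58 and -0.56 in microglia-like and endothelial-like cells), Rps27l (-0.47 and -0.02) and Rplp1 (-0.40 and -0.63).

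A few members lay above the rest. The classes share the same 2 libraries, so the values are set side by side only. Rpl15, a large subunit protein and a Diamond-Blackfan anaemia gene, was at 697 CPM in wild type and 959 CPM in knock-out microglia-like cells, a ratio of 0.46 [0.42 to 0.51]. Its ratios were 0.41 [0.36 to 0.47] in endothelial-like, 0.40 [0.28 to 0.53] in pericyte or smooth muscle-like and 0.35 [0.11 to 0.60] in erythrocyte-like cells. Rpl35, which lies by the exit of the peptide tunnel, was at 1554 and 1928 CPM in microglia-like cells (0.31 [0.28 to 0.34]), with ratios of 0.39, 0.35 and 0.36 in the other 3 classes. Rpl6l was higher in microglia-like cells (238 and 349.5 CPM, 0.55 [0.48 to 0.63]) and endothelial-like cells (0.50 [0.38 to 0.61]), with 0.18 [-0.08 to 0.45] and 0.23 [-0.26 to 0.72] in the other 2. Rpl27 had ratios of 0.18 in microglia-like and 0.32 in endothelial-like cells, and Rpl13 had 0.13 in both.

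The 3′ ends of many ribosomal protein genes also occur in retrotransposed copies. In the last 400 bases of their GENCODE M21 transcripts, 67 of the 87 members had at least 1 window of 75 bases, the read length, that also occurs in another annotated gene, and 40 had over 50% of their windows shared. The share was 96.6% for Rpl15, 83.7% for Rpl35, 85.9% for Rpl6l, 87.1% for Rpl27 and 87.1% for Rpl13. The low members Rps14 (14.1%) and Rps15 (25.8%) shared fewer, and so did Rplp0 (13.2%), which had a ratio of 0.19 in microglia-like cells, above those of Rpl27 and Rpl13. Low members did not all share fewer, since Rpl10a had 90.2% and Rps27rt 90.3% of windows shared, about as many as the high ones. Of 36 other genes of the files that share windows with members, 21 reached 20 CPM in microglia-like cells. Among these 21, 9 were at least 1.2-fold higher in the library labelled knock-out, where 23.4% of all genes were. Another 4 were lower, where 29.7% of all genes were, and 8 were neither. Their median was 0.02, against -0.04 over all genes. Gm10020, which shares windows with Rpl15, was at 34.3 CPM in wild type and 59.9 CPM in knock-out microglia-like cells (log2 ratio 0.80). Rpl27-ps3 had a ratio of 0.72, Rpl13-ps3 of 0.86, Rpl9-ps6 of 0.71, and Gm8730, the copy of Rplp0, of 0.76. Other copies were lower in the library labelled knock-out, among them Gm10263 of Rps28 (-1.35) and Gm10076 of Rpl41 (-0.98). The copies named were chosen after their values were seen.

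Adding the copies changed the direction for Rps7, a small subunit protein. Rps7 itself was at 1633 and 1469 CPM in microglia-like cells (-0.15 [-0.19 to -0.12]), while Gm9493, which shares 3′ windows with it, was at 259.6 and 744 CPM (1.52). Of the Rps7 windows 99.7% occur in at least 1 of 11 other genes, and the share with Gm9493 alone is not given here. Their sum had a ratio of 0.23 [0.20 to 0.25] in microglia-like and 0.21 [0.17 to 0.25] in endothelial-like cells. Summed with its copies, Rpl15 kept 0.48 [0.43 to 0.52] and Rpl35 0.26 [0.23 to 0.29] in microglia-like cells. The 40 members with over 50% of windows shared had a median ratio of -0.16 in microglia-like cells and the other 44 had -0.24, and the 17 with none shared had -0.26. In endothelial-like cells these medians were -0.20, -0.26 and -0.29. The sources used here do not say how reads that match several genes were counted, so the split between a member and its copies is uncertain, and its part in the ratios was not tested.

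The 2 smaller classes had medians further from 0. In pericyte or smooth muscle-like cells the members' median was -0.32, against 0.06 over all genes. There 50 of 84 members were at least 1.2-fold lower (21.3% of all genes) and 2, Rpl15 and Rpl35, at least 1.2-fold higher (30.8%). At 1.5-fold, 8 members were lower (7.67%). In erythrocyte-like cells the median was -0.46 against -0.09, with 69 members lower (38.1%) and 2 higher (27.6%), again Rpl15 and Rpl35, and 29 lower at 1.5-fold (20.4%). The erythrocyte-like values move with haemoglobin, at 25.2% of wild type and 33.1% of knock-out UMIs, and its part in the ratio was not tested. Rpsa, which is also known as the laminin receptor, was among the low members here, as was the Rps19-binding protein Rps19bp1 in erythrocyte-like cells (-1.05 [-2.27 to 0.05]). Rpsa had -0.63 in pericyte or smooth muscle-like and -0.91 in erythrocyte-like cells, beside -0.23 in microglia-like and -0.54 in endothelial-like cells.

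The ribosomal stalk, which recruits the elongation factors, was uneven. Rplp1 stood at 3139 CPM in wild type and 2384 CPM in knock-out microglia-like cells (-0.40 [-0.42 to -0.37]), Rplp2 at 2062 and 1655 CPM (-0.32 [-0.35 to -0.28]) and Rpl12, at the stalk base, at 554 and 457 CPM (-0.28 [-0.34 to -0.21]). Rplp0, which anchors Rplp1 and Rplp2, was at 2003 and 2289.6 CPM, a ratio of 0.19 [0.16 to 0.22]. So 3 of the 4 stalk genes were lower and the anchor was not. In endothelial-like cells the 4 ratios were -0.63, -0.48, -0.48 and -0.07 in the same order. Rpl5 and Rpl11, which carry the 5S ribosomal RNA and can bind Mdm2, had ratios near 0 in microglia-like cells, -0.05 [-0.12 to 0.01] and -0.03 [-0.06 to 0.00].

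Endothelial-like cells had lower levels of most members than microglia-like cells, within each library. In the wild type library the median log2 ratio, endothelial-like over microglia-like, was -0.20 over 84 members, against 0.24 over 6297 genes. Of the members 30 were at least 1.2-fold lower (22.6% of all genes) and 2 higher (48.7%). In the library labelled knock-out the median was -0.28 against 0.39, with 44 members lower (26.0%) and 3 higher (56.4%). In both libraries 29 of the 84 were lower, where 21.3% of all genes were, and 2 were higher, where 46.8% were. Scaled to the median of all genes the members' medians were -0.45 and -0.67.

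Rpl38 and Rps27l were the 2 members at least 1.2-fold higher in endothelial-like cells in both libraries. Rpl38, a large subunit protein whose loss causes the Tail-short mouse, was at 1584 CPM in microglia-like and 2662 CPM in endothelial-like cells of the wild type library, a ratio of 0.75 [0.72 to 0.77]. Knock-out levels were 1196 and 2906 CPM, a ratio of 1.28 [1.24 to 1.32]. Pericyte or smooth muscle-like cells lay between them, with 1886 and 1978 CPM, as did erythrocyte-like cells with 1778 and 1728 CPM. Every endothelial-like value was thus above every microglia-like one. Rps27l, a p53-responsive relative of Rps27, was at 290.2 and 408 CPM in wild type cells (0.49 [0.43 to 0.55]) and at 209.7 and 402 CPM in knock-out cells (0.94 [0.83 to 1.05]). The upper estimate of free RNA was 53.4% and 21.1% of the UMIs in microglia-like cells and 50.8% and 21.5% in endothelial-like cells. With it subtracted the Rpl38 ratios became 1.62 and 1.65 and the Rps27l ratios 1.05 and 1.21. The subtraction takes the average of all cells out of both classes. By its form it moves a class ratio away from 0 where that average lies between the classes, so the wider ratios cannot be read as a check. Rpl41, the shortest ribosomal protein, had 0.16 and 0.39, Rpl22l1 0.08 and 0.24, and Rps19bp1 0.17 and 0.21.

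At the other end stood Rps28, a short small subunit protein, and Rpl10 of the large subunit. Rpl10 had ratios of -0.60 in the wild type library and -0.83 [-0.88 to -0.78] in the other. Rps29, another short small subunit protein, was low too but less so than Rpl10. In the wild type library Rps28 was at 2358 CPM in microglia-like and 1378 CPM in endothelial-like cells (-0.78 [-0.80 to -0.75]) and at 2311 and 1267 CPM in the other (-0.87 [-0.91 to -0.82]). In UMI counts, which tally a molecule once whatever its length, Rps29 had the highest level of all members in microglia-like cells, 6127 and 6063 CPM, and 4097 and 3653 CPM in endothelial-like cells, with ratios of -0.58 and -0.73. The order of levels at the top thus changed between the classes: after Rps29, wild type microglia-like cells had Rps14 (4633 CPM), and endothelial-like cells had Rpl41 (4622 CPM) and Rps14 (4432 CPM) above Rps29. Rpl10, Rpl39, Rpl36a and Rps4x lie on the X chromosome, and their wild type ratios were -0.60, -0.55, -0.28 and -0.34. In the wild type library all 4 were at least 1.2-fold lower, where 22.6% of all genes were. In the other 3 of 4 were, where 26.0% of all genes were and Rpl36a had -0.24. All 4 stalk genes were at least 1.2-fold lower in both libraries, with -0.46 and -0.72 for Rplp0 and -0.55 and -0.75 for Rpl12. Of all members 29 of 84 were lower in both libraries, and of all genes 21.3%. Endothelial-like cells also carried microglial markers, given above, and their part in these ratios was not tested. With free RNA subtracted the wild type ratios of Rps28 and Rpl10 were -1.74 and -1.31, further from 0, the way this subtraction moves such ratios by its form.

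**Figure D3:**
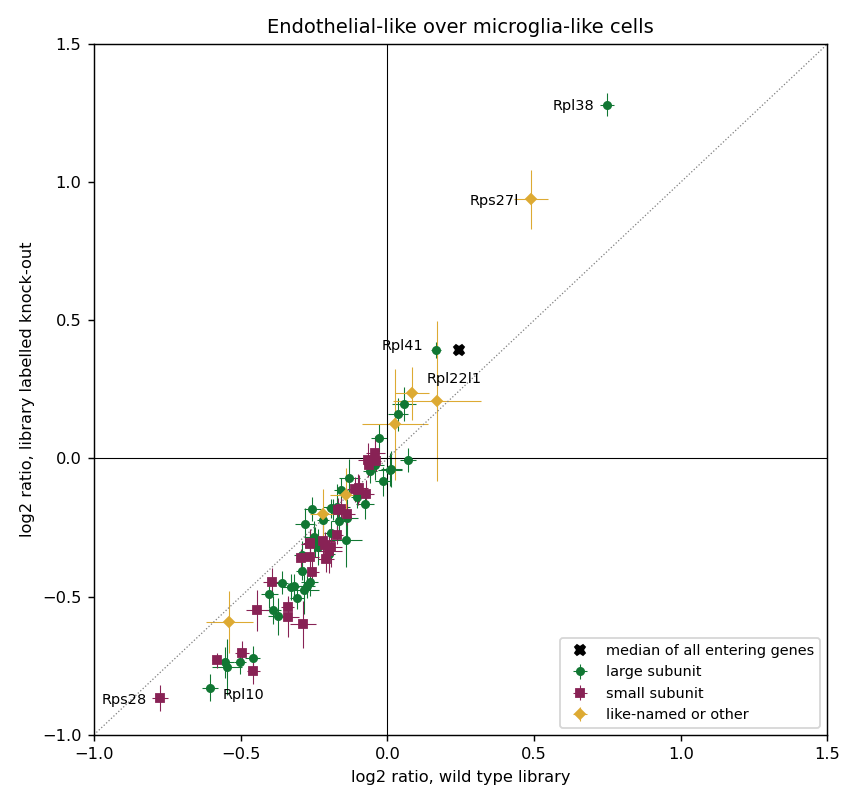
Log2 ratio of CPM, endothelial-like over microglia-like cells, of the 84 entering members for the wild type library on the horizontal and the library labelled knock-out on the vertical axis, with 95% counting intervals. Most points lie below 0 on both axes while the cross, the median of all entering genes, lies at 0.24 and 0.39, and Rpl38 and Rps27l stand alone at the upper right.

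Pericyte or smooth muscle-like cells also had lower levels of most members. Over microglia-like cells the members' median was -0.26 in the wild type library (0.24 over all genes), with 41 of 84 at least 1.2-fold lower (21.5%) and 3 higher (48.7%). In the library labelled knock-out it was -0.41 (0.38), with 62 lower (25.9%) and 3 higher (55.4%). The higher ones were Rpl22l1, Rps27l and Rps19bp1 in the wild type library and Rpl22l1, Rps27l and Rpl38 in the other. Rpl22l1, Rps27l and Rpl38 had wild type ratios of 0.32, 0.42 and 0.25, and knock-out ratios of 0.38, 0.84 and 0.73. The lowest were Rps28 (-0.68) and Rps29 (-0.64) in the wild type library.

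The like-named genes ranged from a major part of their pair to no count at all. Rpl22l1, the paralog of Rpl22, which in turn can repress Rpl22l1, took 38.5% [37.7 to 39.3] of the Rpl22l1 and Rpl22 UMIs in wild type and 38.9% [37.6 to 40.2] in knock-out microglia-like cells. Its part was 42.8% [41.8 to 43.7] and 45.8% [44.1 to 47.5] in endothelial-like cells, and 46.8% [44.7 to 48.9] and 48.3% [44.9 to 51.7] in pericyte or smooth muscle-like cells. The share was thus lowest in microglia-like cells and the libraries overlapped there and in pericyte or smooth muscle-like cells. Rpl36al, an autosomal copy of X-linked Rpl36a, took 27.7% [27.1 to 28.2] and 26.7% [25.8 to 27.7] in microglia-like and 29.6% [28.9 to 30.4] and 28.2% [26.9 to 29.5] in endothelial-like cells.

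Rps27l made up a smaller part of its pair in microglia-like cells than in the others. It took 7.63% [7.42 to 7.84] and 5.70% [5.40 to 6.01] of the Rps27l and Rps27 UMIs in microglia-like cells and 11.6% [11.2 to 11.9] and 12.3% [11.7 to 12.9] in endothelial-like cells, with 11.5% and 11.9% in pericyte or smooth muscle-like cells. Rpl6l made up more of its pair in the library labelled knock-out: it took 10.6% [10.3 to 10.9] and 15.2% [14.6 to 15.8] in microglia-like, 9.24% [8.85 to 9.64] and 14.1% [13.3 to 14.96] in endothelial-like and 9.44% [8.54 to 10.4] and 12.95% [11.2 to 14.8] in pericyte or smooth muscle-like cells. Since 85.9% of its 3′ windows also occur in Rpl6 or other genes, its counts are uncertain. Rpl7l1, a nucleolar relative of Rpl7, took 6.57% [6.25 to 6.90] and 6.82% [6.25 to 7.42] in microglia-like and 7.02% [6.63 to 7.42] and 8.20% [7.39 to 9.06] in endothelial-like cells.

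The other 3 like-named genes, known from germ cells and striated muscle, were nearly silent. Rpl39l had 54 UMIs (0.19% of its pair) in wild type and 16 UMIs (0.17%) in knock-out microglia-like cells. Rpl3l, the relative of Rpl3 in striated muscle, had 7 and 0 UMIs in microglia-like, 6 and 2 in endothelial-like and 8 and 1 in pericyte or smooth muscle-like cells. The 8 UMIs are a level of 3.51 CPM [1.52 to 6.92], against 0.45 CPM [0.18 to 0.92] in wild type microglia-like cells. Rpl10l, the germ cell copy of X-linked Rpl10, had 0 UMIs in every class of both libraries, which in microglia-like cells allows up to 0.19 and 0.48 CPM (3 counts per library).

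**Figure D4:**
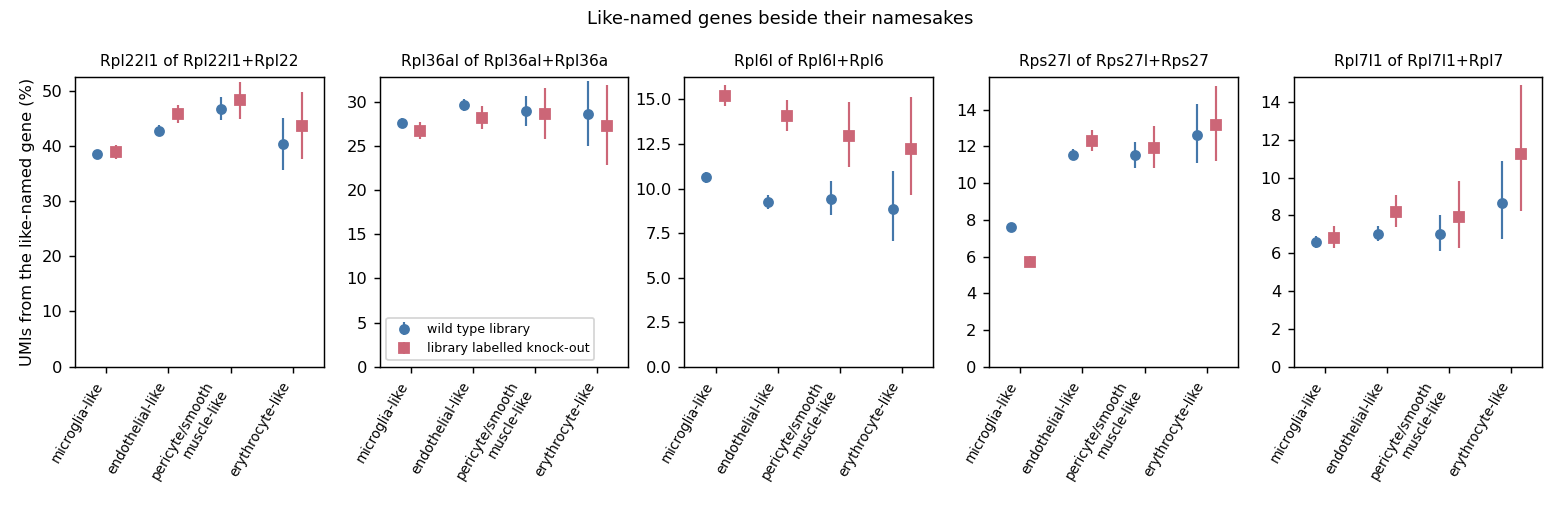
Share of the UMIs of a like-named gene and its namesake that came from the like-named gene (percent, vertical axis), for 5 pairs in 4 cell classes, with exact 95% intervals. Blue circles are the wild type library and red squares the library labelled knock-out; Rps27l is lowest in microglia-like cells, and Rpl6l is higher in red than in blue.

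Fixed lists also held ribosomal proteins under other symbols. In microglia-like cells Gnb2l1, the scaffold also called Rack1, had a ratio of -0.41 [-0.48 to -0.34], and Fau, a fusion with a small subunit protein, of 0.04 [0.02 to 0.06]. Of 12 members mutated in Diamond-Blackfan anaemia, 3 were at least 1.2-fold lower and 1, Rpl15, higher in microglia-like cells, where 29.7% and 23.4% of all genes were, with a median of -0.06. Rpl26 (-0.32) and Rps19 (-0.27) were among the lower ones.

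The counts for other genes of translation are to be read against the 29.7% of all genes that were at least 1.2-fold lower and the 23.4% that were higher in microglia-like cells. Of 11 elongation factors and other genes with TOP messengers, 2 were at least 1.2-fold lower and 1 higher in microglia-like cells, with a median of -0.08. The higher one was Pabpc1, the poly(A)-binding protein, at 463 and 944 CPM (1.03 [0.98 to 1.08]). The lower ones were Eef1d (-0.56) and the nascent chain factor Naca (-0.36). Among 31 initiation factors 7 were lower and 7 higher, with a median of -0.07, near the shares of all genes. Eif6, which holds the subunits apart, was at 187 and 120.2 CPM (-0.64 [-0.75 to -0.52]), Eif3k had -0.42, and Eif2s3x (0.62) and Eif4g3 (0.49) were higher.

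Of 24 entering ribosome biogenesis genes, 9 were at least 1.2-fold lower and 1 higher in microglia-like cells (29.7% and 23.4% of all genes), with a median of -0.19. Nop10 (-0.69 [-0.79 to -0.59]) and Gar1 (-0.45) of the H/ACA particle and Rrs1 (-0.54) were low, and Gnl3, nucleostemin, was the higher one (0.41 [0.24 to 0.57]). Of 10 entering genes of mTOR and Myc control, 3 were lower and 2 higher, near the same shares. Larp1, which binds TOP tracts, was at 14.5 and 22.7 CPM (0.64 [0.33 to 0.95]), and Rps6kb2, an S6 kinase, at 20.97 and 12.2 CPM (-0.78 [-1.16 to -0.41]). Larp1 and Rps6kb2 each reached the minimum of 20 CPM only in the library where they were higher. Their directions, and their part in these counts, are thus tied to that minimum. The ratios of Tsc1 and Akt1s1, which restrain mTOR complex signalling, were 0.46 and -0.42.

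Mitochondrial ribosomal proteins, which serve the organelle's own ribosome, were measured beside the cytosolic ones. In the wild type library 40 of 69 were at least 1.2-fold higher in endothelial-like than in microglia-like cells and 1 was lower, where 48.7% and 22.6% of all genes were. Their median of 0.30 lay near that of all genes (0.24), and the cytosolic members had -0.20. In the library labelled knock-out 57 of 70 were higher, where 56.4% of all genes were, with a median of 0.62 against 0.39 for all genes and -0.28 for the cytosolic members. Between the libraries, 46 of 69 were at least 1.2-fold lower in microglia-like cells, where 29.7% of all genes were, with a median of -0.36, led by Mrpl12 (-0.91), Mrps26 (-0.81), Mrpl28 (-0.79) and Mrpl46 (-0.78). In endothelial-like cells 12 of 70 were, where 15.5% of all genes were, with a median of -0.04. These genes have low levels, 96.3 CPM for Mrpl12 in wild type microglia-like cells.

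**Figure D5:**
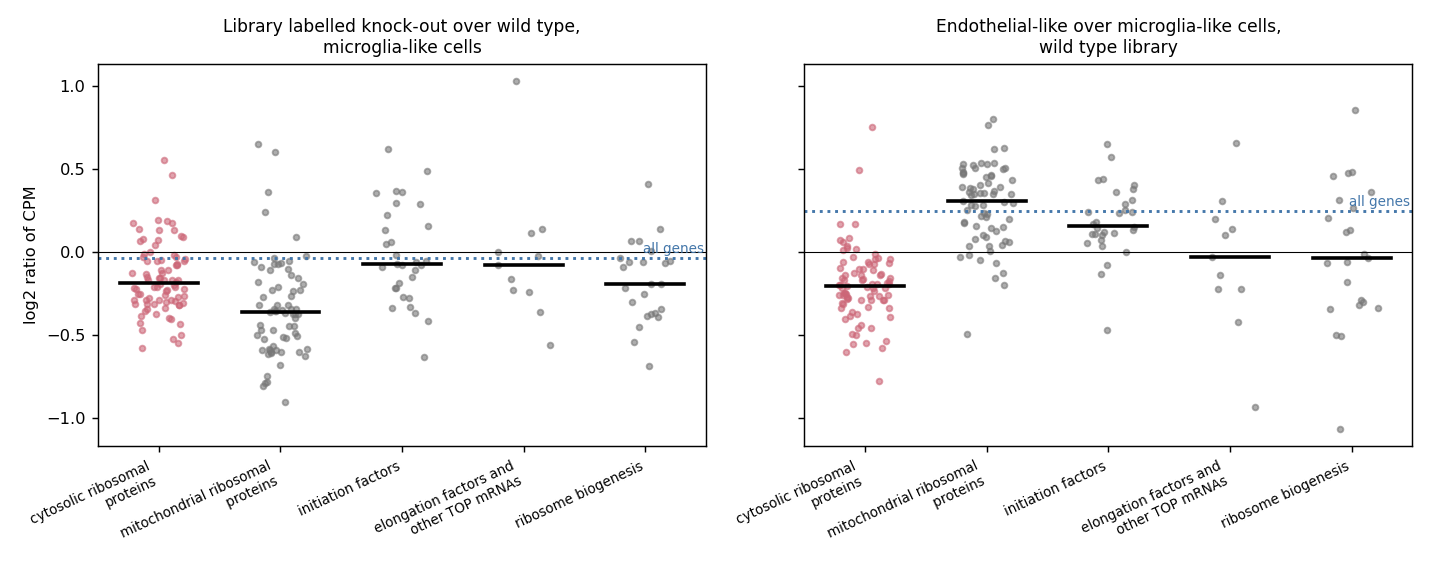
Log2 ratio of CPM (vertical axis) of each entering gene in 5 groups of translation genes, for the library labelled knock-out over wild type in microglia-like cells (left) and for endothelial-like over microglia-like cells in the wild type library (right). Points are genes, black bars medians and the dotted line the median of all entering genes; the cytosolic and mitochondrial ribosomal proteins have medians of -0.19 and -0.36 on the left and of -0.20 and 0.30 on the right.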

How the data were processed

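Cells from mouse spinal cord had been sorted for YFP and sequenced with 10x 3′ chemistry, in 1 wild type and 1 library labelled knock-out. The deposited matrices hold raw UMI counts per gene and cell, per the labels. The submitters' processing notes name Cell Ranger 2.0.1, Seurat 2.1.0, STAR, mm10 and GRCm38.p5, without roles. How reads that match several genes were treated was not given in sources used here. Depth was 37446978 and 13075939 UMIs.

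Barcodes with under 300 genes or over 10% mitochondrial UMIs were removed (0 and 8). Cells of both libraries were clustered together (scanpy 1.11.5, Leiden resolution 0.5, leidenalg 0.10.2) without the member and translation genes, and clusters were named from marker lists. Doublet scores were computed and no cell was removed for them; the unnamed cluster 4 held 33.5% top scorers. UMI counts were summed per class and library and divided by the total (CPM). A gene entered a comparison at 20 CPM or more in at least 1 library, and a call was a ratio past 1.2-fold, with 1.5-fold as the stricter call. Intervals are exact at 95% (binomial for shares and ratios, Poisson for CPM) and cover counting error only. With 1 library per group no p-value was computed. Free RNA was estimated from markers of other classes as an upper estimate and subtracted as an alternative. TMM factors came from edgeR 4.0.16 as another alternative. The ratios were checked on simulated counts.

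Named were the like-named genes, the stalk, 5S and X-linked members and Rpsa, the 5 highest and 5 lowest members in each library ratio (microglia-like and endothelial-like cells) and class ratio (mean of both libraries), the 3 highest levels in microglia-like cells, members at least 0.5 (log2) from the members' median, and up to 4 genes of each companion list by the size of their microglia-like ratio. A few genes under this rule are not reported here. Copies of members were chosen after their values were seen. Members and lists were chosen with earlier results of these data known. Promoter windows came from RefSeq (GRCm38.p6) and 3′ ends from GENCODE M21.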

Additional observations from a re-analysis of the deposited data

Results flagged for a closer look

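The following 7 members had ratios, library labelled knock-out over wild type, whose counting intervals lay above 0 in one class and below 0 in the other. Each difference, microglia-like minus endothelial-like on the log2 scale, was not tested, and both classes come from the same 2 libraries. Rpl38 had the widest gap, -0.53, from -0.40 in microglia-like and 0.13 in endothelial-like cells. With free RNA subtracted its 2 ratios were -0.09 and -0.06. The stalk anchor Rplp0 differed by 0.26 (0.19 and -0.07), with 0.05 and 0.09 after that subtraction. Summed with its copy Gm8730 it had 0.29 and 0.03. Rpl35a differed by 0.20 (0.04 and -0.16), Rpl7a by 0.19 (0.09 and -0.10) and Rpl3 by 0.19 (0.07 and -0.12). Rps3 differed by 0.16 (0.09 and -0.06) and Rpl17 by 0.13 (0.08 and -0.06). After the subtraction the pairs of ratios were -0.06 and -0.06 for Rpl35a, -0.01 and -0.02 for Rpl7a, -0.02 and -0.04 for Rpl3, 0.03 and 0.00 for Rps3, and -0.04 and 0.06 for Rpl17. Of the 7, the signs then differed for Rpl17 alone.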

How the results depend on the processing

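No paired analysis was possible because each group has 1 library. Over the alternatives, the members' median ratio between the libraries ranged from -0.26 to -0.10 in microglia-like and from -0.33 to -0.17 in endothelial-like cells, and no result reversed: 91 values stayed within their limits, 25 moved and 7 passed the 1.2-fold line. Scaling to the median ratio of all genes gave -0.32 for endothelial-like cells between libraries and -0.45 for endothelial-like over microglia-like cells in the wild type library, and TMM scaling gave -0.33 for the former. Without mitochondrial and haemoglobin genes the member shares (wild type, knock-out) were 15.46% and 13.90% in microglia-like and 13.34% and 11.50% in endothelial-like cells. As means over cells they were 14.81% and 13.20%, and 12.87% and 10.77%. Thinned to 1500 UMIs they were 14.83% and 13.18%, and 12.86% and 10.76%, with a median of -0.29 and 2 members higher in endothelial-like cells. Leiden resolution 1.0 gave 15 lower and 5 higher members in microglia-like cells, a median of -0.27 in endothelial-like cells, and shares of 14.44% in wild type microglia-like and 13.14% and 10.80% in endothelial-like cells. Free RNA subtraction gave 39 lower members in microglia-like and 21 in endothelial-like cells, -0.42 for the wild type class ratio, and shares of 16.41% and 13.90%, and 12.03% and 10.95%. Cells of 3000 to 6000 UMIs, chosen after seeing the data, gave 12 lower and 6 higher members in microglia-like cells and a median of -0.27 in endothelial-like cells. Shares of all genes past 1.2-fold under these alternatives are not given here, so the counts of members have no background beside them. The causes were not tested.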
